A study of Rattus norvegicus with 192 samples.

Results

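The genes described here encode the subunits of the receptors for GABA and glutamate, the main inhibitory and the main excitatory transmitter of the brain. They were followed in rats that had inhaled phosphine (PH3), a fumigant gas known as an inhibitor of cytochrome c oxidase, the last complex of the mitochondrial respiratory chain. Members were chosen by name: a probe set counted if its platform annotation gave a single gene whose symbol starts with Gabr, Gria, Grik, Grin1, Grin2, Grin3 or Grm followed by a digit, or is Gabbr1 or Gabbr2. No measured value entered that choice. It gave 41 genes on 64 probe sets, out of 13438 genes and 31042 probe sets tested, and all 41 genes matched a RefSeq gene by gene ID. They comprise 16 GABA-A subunits on 22 probe sets, 2 GABA-B subunits on 7, 4 AMPA subunits on 8, 5 kainate subunits on 5, 7 NMDA subunits on 11 and 7 metabotropic glutamate (mGlu) receptors on 11. Where a gene has several probe sets, its values come from the one with the highest mean in that tissue, or over the tissues compared.

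Male Sprague-Dawley rats breathed PH3 by whole-body exposure at 660 ppm for 25 min, a concentration-time product of 16500 ppm x min, or Air, and were sampled at 1, 3, 6 and 24 h. Total RNA of brain stem, olfactory bulb, blood, heart, kidney and lung was hybridised to 3'-biased oligonucleotide arrays, 1 array per rat and tissue, 192 arrays in 48 groups. Each group held 4 rats, except 3 in blood Air 24 h and 5 in olfactory bulb Air 1 h. Both exposures lay within the same strain and sex, and no genetic change or other agent is named in the labels beside the ketamine and xylazine given to all rats before tissue was taken. Only 4 PH3 rats and 5 Air rats gave both brain stem and olfactory bulb, so the 2 nervous tissues come mostly from different animals.

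GABA-A receptors are chloride channels built of several subunits, usually alpha and beta with a gamma or delta subunit, and GABA-B receptors are G protein-coupled heterodimers. AMPA, kainate and NMDA receptors are glutamate-gated cation channels, and mGlu receptors are G protein-coupled. Which subunits a cell makes sets the speed, affinity and location of its receptors, and the mixture differs between brain regions. In these tissue pieces, fewer cells of a type and less RNA per cell cannot be told apart.

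Values are deposited log2 signals, so a difference of 1 is a 2-fold difference of signal, and levels are compared for a probe set between samples, never between probe sets. Every array correlated best with an array of its own labelled tissue. Array medians lay between 4.98 and 5.42, and the median of 23 nonspecific control probe sets, a measure of background, lay between 2.59 and 2.81 in the nervous tissues and between 3.25 and 3.83 in blood. All 8 measured brain stem markers, among them homeobox genes of the hindbrain, were higher in Air brain stem, and all 8 measured markers of olfactory bulb neurons were higher in Air olfactory bulb. A gene was called when its Benjamini-Hochberg adjusted p, taken over all 31042 probe sets with limma's moderated test (two-sided), was under 0.05.

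In Air rats the 2 nervous tissues differed in most of these subunits. Of the 41 members, 12 were called higher and 17 lower in brain stem than in olfactory bulb, and 12 were not called. Over all probe sets 33.2% were called higher and 31.2% lower in brain stem, so most probe sets differed between these tissues and the members' counts are read against that background. The median difference was -0.04 over members and 0.02 over all probe sets. For 16 of the 41 members the difference exceeded 1 on the log2 scale in either direction, beside 9.85% of all probe sets. For 13 the ranges of the 16 brain stem and 17 olfactory bulb arrays did not overlap, beside 18.8% of all probe sets.

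Among GABA-A subunits, 4 of 16 were higher in brain stem, 6 were lower and 6 were not called. Gabra6, the alpha6 subunit known from cerebellar granule cells, had levels of 2.67, 5.26 and 9.61 (lowest, median, highest) in Air brain stem, against 2.55, 2.73 and 2.87 in Air olfactory bulb. Its brain stem arrays spread over more than 6 log2 units while its olfactory bulb arrays stayed near background, and the difference was 2.87 ± 0.537 (SE, adjusted p = 2.6e-05). The epsilon subunit Gabre, a subunit that can replace gamma, ran from 3.90 through 4.67 to 5.19 in brain stem, and from 3.26 through 3.55 to 3.73 in olfactory bulb. The ranges of Gabre did not overlap, with a difference of 1.08 ± 0.0692 (SE, adjusted p = 1.3e-14), and its second probe set gave 0.12. Gabrg1, the gamma1 subunit, was higher in brain stem by 1.01 ± 0.0885 (SE), and Gabrq, the theta subunit, by 0.12 ± 0.0506 (SE, adjusted p = 0.0366). Gabrq was low in both, at means of 3.80 in brain stem and 3.68 in olfactory bulb. The median of the nonspecific control probe sets averaged 2.72 and 2.66 in these tissues, and its part in this small difference was not tested.

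The delta subunit Gabrd, which forms extrasynaptic receptors, was the GABA-A member lowest in brain stem relative to olfactory bulb. Its lowest, median and highest levels were 3.75, 4.76 and 7.13 in Air brain stem, against 6.61, 7.11 and 7.60 in Air olfactory bulb. A single brain stem array reached into the olfactory bulb range, and the difference was -2.33 ± 0.221 (SE, adjusted p = 1.1e-10). Gabra4, an alpha subunit that often pairs with delta, showed 3.64, 4.17 and 4.90 in brain stem, against 5.52, 6.28 and 6.68 in olfactory bulb, without overlap, a difference of -2.04 ± 0.116 (SE, adjusted p = 8.1e-16). The alpha subunits Gabra2, Gabra3 and Gabra5 and the beta subunit Gabrb2 were lower in brain stem by -0.72, -0.55, -0.93 and -1.51 on the log2 scale. The 3 rho subunits Gabrr1, Gabrr2 and Gabrr3, best known from retina, together with Gabrp and Gabrg3, had mean levels of 2.69 to 3.23 in both tissues and were not called. The beta1 subunit Gabrb1 averaged 9.07 ± 0.189 in brain stem and 8.98 ± 0.224 in olfactory bulb (SD, n = 16 and 17) and was not called, with a 95% interval of -0.04 to 0.23 for the difference.

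Of the GABA-B pair, Gabbr2, the subunit that couples to the G protein, had 8.87, 9.61 and 9.86 (lowest, median, highest) in brain stem, against 7.57, 8.02 and 8.73 in olfactory bulb. It was higher in brain stem by 1.41 ± 0.105 (SE, adjusted p = 5.0e-13), and its second probe set gave 1.24. Gabbr1, the GABA-binding subunit, differed by 0.02 ± 0.0448 (SE, adjusted p = 0.71) on its brightest probe set. Of its 4 other probe sets, 2 were called higher in brain stem (0.50 and 0.39), so its probe sets disagree.

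All 3 AMPA subunits that were called were lower in brain stem. Gria2, the subunit whose edited form makes AMPA receptors impermeable to calcium, had 9.52, 9.92 and 10.20 in brain stem, against 11.42, 11.50 and 11.69 in olfactory bulb. These ranges did not overlap, and the difference was -1.63 ± 0.0517 (SE, adjusted p = 5.1e-22). Gria1 differed by -2.02 ± 0.0925 (SE) and Gria3 by -0.51 ± 0.063 (SE). Gria4 was not called on its brightest probe set (0.12 ± 0.0794, SE), while its other probe sets gave 0.59 and -0.28, both called, in opposite directions.

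Kainate subunits split. Grik4, a high-affinity subunit that needs a partner to form a channel, had 5.60, 6.23 and 6.53 in brain stem, against 3.99, 4.19 and 4.51 in olfactory bulb. Its difference of 1.98 ± 0.0665 (SE, adjusted p = 2.1e-21) was the largest called kainate difference in favour of brain stem. The other high-affinity subunit, Grik5, went the opposite way, with 6.15, 6.98 and 7.57 in brain stem and 7.79, 8.13 and 8.39 in olfactory bulb. Its difference was -1.15 ± 0.0584 (SE, adjusted p = 4.8e-17), and both members had ranges without overlap. Grik2 was lower in brain stem (-0.66 ± 0.0918, SE) and Grik3 higher (0.12 ± 0.0421, SE, adjusted p = 0.0132). Grik3 was low in both, at means of 3.70 in brain stem and 3.58 in olfactory bulb.

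Both NMDA subunits of the Grin3 family, which are known to lower calcium permeability, were higher in brain stem. Grin3a had 5.32, 5.90 and 6.32 in brain stem, against 3.83, 4.53 and 4.93 in olfactory bulb, a difference of 1.48 ± 0.0866 (SE, adjusted p = 1.6e-15) with no overlap. Grin3b differed by 1.04 ± 0.0906 (SE), but its dimmer probe set gave -0.18 ± 0.0445 (SE), called in the other direction. Grin2b, a subunit prominent early in brain development, had 3.71, 4.16 and 4.46 in brain stem, against 4.77, 5.13 and 5.63 in olfactory bulb. These groups did not overlap either, and the difference was -0.98 ± 0.0806 (SE, adjusted p = 4.6e-12). The obligatory subunit Grin1 and Grin2c were called lower in brain stem by small amounts (-0.20 ± 0.0798 and -0.17 ± 0.0727, SE), and the sign of both turned without the 24 h groups (0.01 and 0.14, adjusted p = 0.912 and 0.157). The second Grin1 probe set gave -1.76. Grin2d was higher in brain stem by 0.34 ± 0.0504 (SE).

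The 2 group II mGlu receptors, Grm2 and Grm3, which lower transmitter release, pointed in opposite directions. Grm2 had 3.93, 4.43 and 5.40 in brain stem, against 6.60, 7.71 and 8.11 in olfactory bulb, a difference of -2.95 ± 0.132 (SE, adjusted p = 2.2e-18). Grm3, also known from astrocytes, had 8.86, 9.03 and 9.30 in brain stem, against 7.25, 7.62 and 8.33 in olfactory bulb, a difference of 1.43 ± 0.0759 (SE, adjusted p = 1.5e-16). Neither pair of ranges overlapped. Grm5, a group I receptor coupled to calcium release, was lower in brain stem by -1.27 ± 0.0728 (SE), and of the group III receptors Grm4 was lower (-0.86 ± 0.0995, SE) and Grm7 higher (0.37 ± 0.0762, SE). Grm6, known from retinal bipolar cells, and Grm8 were not called, though a dimmer Grm8 probe set was called higher in brain stem at 0.16.

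**Figure D1:**
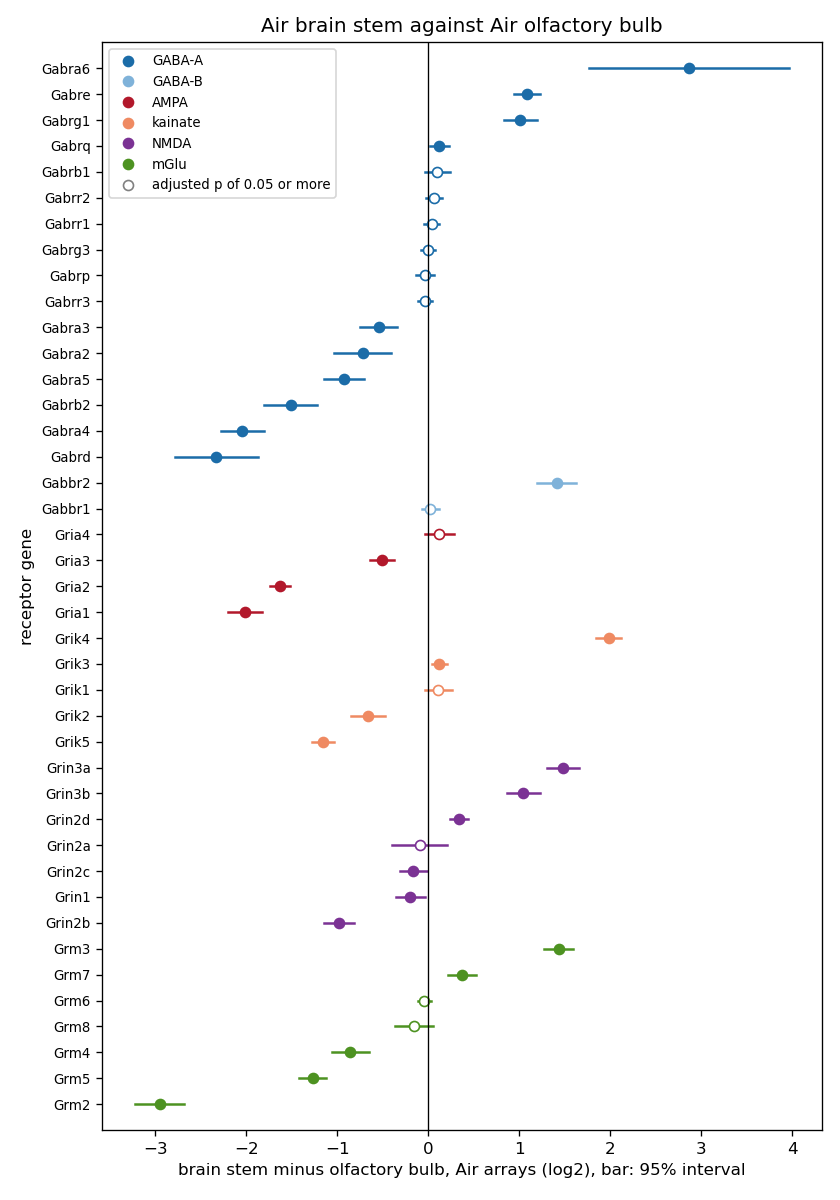
Difference of Air brain stem minus Air olfactory bulb (log2, horizontal axis) for each of the 41 receptor genes, coloured by class, with 95% intervals; filled points are called. Gabra6 lies furthest right at 2.87 with the widest interval, and Grm2 furthest left at -2.95.

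Partner genes of the synapses, taken from lists of transporters, scaffolds and synthesising enzymes, differed too. Of 18 measured GABA synapse partners 7 were higher and 9 lower in brain stem, with a median difference of -0.14. Of 34 measured glutamate synapse partners 7 were higher and 27 lower, with a median of -0.93. All 5 measured related receptors outside the naming rule (glycine and delta receptor subunits) were higher in brain stem, with a median of 1.09. Glial markers also moved with tissue: all 5 measured oligodendrocyte markers were higher in brain stem (median 1.64), as were 5 of 6 astrocyte markers (median 0.77). Of 6 microglia markers 0 were higher and 4 lower in brain stem (median -0.26), and neuron markers split 4 and 4 of 10 (median -0.03). Their part in the members' differences was not tested.

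Within brain stem, Gabra6 differed between rats of the same group more than nearly any other probe set. Its within-group SD was 2.21 (percentile 99.99 of all probe sets), against a median of 0.24 over members and 0.15 over all probe sets. Its 32 arrays ran from 2.53 to 9.61, with 8 arrays under 3 and 5 over 8. In PH3 rats it had 2.53, 3.82, 4.08 and 4.84 at 1 h, 2.82, 5.84, 6.23 and 6.25 at 3 h, 2.57, 4.33, 5.38 and 8.81 at 6 h, and 2.80, 3.01, 6.59 and 7.67 at 24 h. In Air rats it had 2.69, 5.69, 8.16 and 8.33 at 1 h, 2.67, 4.93, 6.36 and 8.14 at 3 h, 2.90, 4.91, 5.23 and 9.61 at 6 h, and 2.96, 5.11, 5.29 and 6.50 at 24 h. Each of the 8 groups held a rat below 3, and high arrays occurred in both exposures. The second Gabra6 probe set followed the first over arrays (r = 0.97 of deviations from group means, n = 32), and in olfactory bulb Gabra6 stayed between 2.55 and 2.96.

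In olfactory bulb the largest within-group SDs were those of Grin2a, Gabra2 and Grm2, at 0.451, 0.449 and 0.423. In brain stem Gabrd and Gabrb2 came next after Gabra6, at 0.825 and 0.516. The 250 bases before the annotated start of Gabra6, Gabrd and Gabrb2 are printed because these members spread most between brain stems. They come from RefSeq on GRCr8 and read 5′ to 3′ on the strand of the gene. Of the 41 members, 30 had an entry. Capitals mark matches on either strand to 3 motifs, which do not overlap one another here. The first, TATAAA, is the core promoter box. The second, CANNTG, is bound by helix-loop-helix factors such as Neurod1. The third, TTGGC, is part of the site of nuclear factor I, a family known from mouse cerebellum to act on Gabra6.
Gabra6, chr10:27327235-27327484, minus strand: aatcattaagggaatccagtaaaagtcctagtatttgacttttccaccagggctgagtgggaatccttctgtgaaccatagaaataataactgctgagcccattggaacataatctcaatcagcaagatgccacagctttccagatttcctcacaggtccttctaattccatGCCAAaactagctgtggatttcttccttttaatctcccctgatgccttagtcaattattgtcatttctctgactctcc
Gabrd, chr5:171252710-171252959, minus strand: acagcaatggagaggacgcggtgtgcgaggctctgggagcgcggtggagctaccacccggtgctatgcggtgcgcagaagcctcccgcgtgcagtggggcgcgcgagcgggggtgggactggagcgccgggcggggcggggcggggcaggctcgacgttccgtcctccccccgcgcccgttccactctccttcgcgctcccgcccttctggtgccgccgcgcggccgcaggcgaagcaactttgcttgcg
Gabrb2, chr10:27439543-27439792, plus strand: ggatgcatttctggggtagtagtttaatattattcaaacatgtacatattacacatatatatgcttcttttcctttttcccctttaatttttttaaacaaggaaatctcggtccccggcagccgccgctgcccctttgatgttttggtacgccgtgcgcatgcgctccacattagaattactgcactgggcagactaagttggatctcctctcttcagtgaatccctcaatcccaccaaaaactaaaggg
The Gabra6 window held a single match, GCCAA, starting 78 bases before the start, and the windows of Gabrd and Gabrb2 held none. Over 33469 promoter windows of this length, 12.9% held TATAAA, 65.5% CANNTG and 40.3% TTGGC, so a match to TTGGC is common. The windows differed in base composition, with 41.2% G and C in Gabra6, 74.0% in Gabrd and 43.2% in Gabrb2, against a median of 51.2% over all windows.

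Markers of the cerebellum moved with Gabra6 and Gabrd. The mean level of 14 measured markers of cerebellar granule and Purkinje cells ran from 6.14 to 8.16 over the 32 brain stem arrays, with a median of 6.48. Among them the Purkinje cell gene Pcp2 ran from 2.99 to 9.26 and the granule cell factor Neurod1 from 3.33 to 9.63. These are the 2 markers of the 14 with the largest spread, and their deviations from group means went with those of Gabra6 at r = 0.91 and 0.92 (n = 32). Others followed less closely, with r of 0.23 for Rgs8, 0.31 for Calb1 and 0.39 for Barhl2, and the granule cell marker Calb2 ran only from 8.65 to 9.25. In a limma fit of all probe sets with the 8 groups and this marker mean as terms, 3 members had a called positive slope and 0 a called negative one. Over all probe sets 0.441% had a called positive and 0.0193% a called negative slope. Gabra6 rose by 3.72 ± 0.384 per unit of the marker mean (SE, adjusted p = 4.4e-07), Gabrd by 1.51 ± 0.0881 (SE, adjusted p = 4.4e-12) and Gria4 by 0.29 ± 0.0669 (SE, adjusted p = 0.0432). The Gria4 call was lost in 20 of 32 fits that left out 1 array, with adjusted p up to 0.26. Without the arrays whose marker mean was over 7, Gabra6 kept its call (slope 7.29, adjusted p = 0.000494), while Gabrd (1.19, adjusted p = 0.0705) and Gria4 (0.58, adjusted p = 0.231) lost theirs. With the marker mean in the fit, the within-group SD of Gabrd was 28.8% and that of Gabra6 47.9% of its value without it.

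Over the same arrays, deviations of Gabra6 from its group means were compared with mean deviations of 18 marker lists. The Purkinje list gave r = 0.88 and rho = 0.90 (n = 32, permutation p = 1e-05 for both, the smallest 100000 permutations can give, adjusted p = 9e-05 over 18 lists), with r = 0.85 without the 2 arrays farthest from the Gabra6 median. The granule cell list gave r = 0.87 and rho = 0.89 with the same permutation p, and r = 0.84 without those 2 arrays. Choroid plexus markers gave r = 0.66 (rho = 0.65, permutation p = 0.0005 and 0.001, adjusted p = 0.00324 and 0.00678, r = 0.64 without the 2 arrays). Brain stem markers gave r = -0.61 (rho = -0.58, permutation p = 0.003 and 0.004, adjusted p = 0.0142 and 0.0199, r = -0.68 without the 2 arrays). Oligodendrocyte markers gave r = -0.51 (rho = -0.50, permutation p = 0.007 and 0.009, adjusted p = 0.0237 and 0.0334, r = -0.53 without the 2 arrays), and the other 13 lists had adjusted p of 0.139 or more. Within PH3 and within Air arrays, r for the Purkinje list was 0.86 and 0.89.

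**Figure D2:**
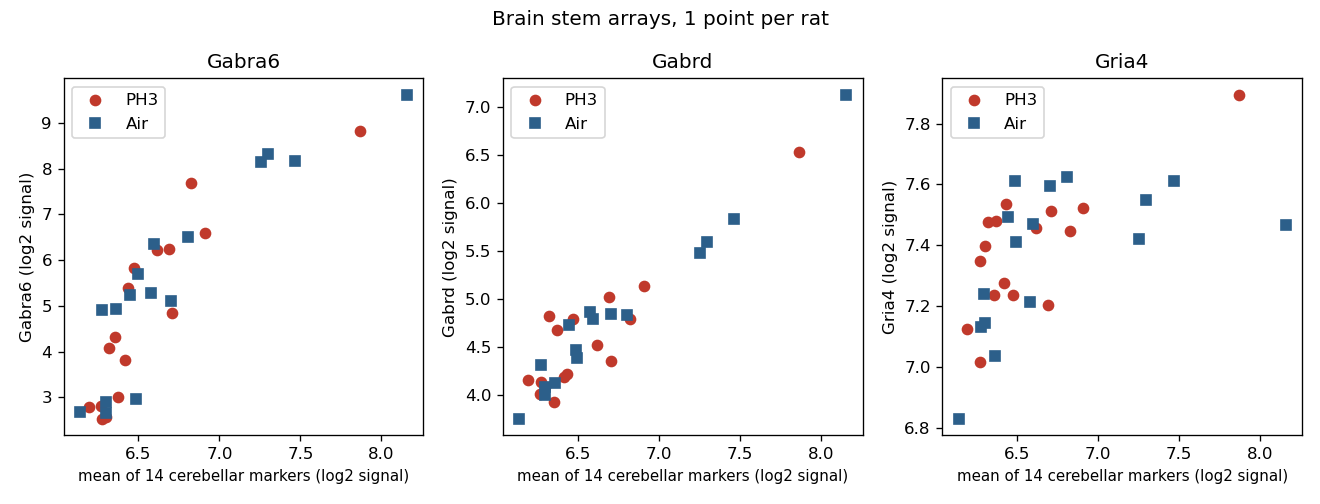
Levels of Gabra6, Gabrd and Gria4 (log2 signal, vertical axes) against the mean of 14 cerebellar markers (log2 signal, horizontal axes) in 32 brain stem arrays, 1 point per rat, red circles for PH3 and blue squares for Air. PH3 and Air rats lie along the same band in the Gabra6 panel, between 2.53 and 9.61.

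The comparison of PH3 with Air asked whether inhaled phosphine changed these transcripts. In brain stem and olfactory bulb 0 of 41 members were called at any of the 4 times. Unadjusted p-values under 0.05 were reached in brain stem by 1, 3, 1 and 4 members at 1, 3, 6 and 24 h, and in olfactory bulb by 1, 2, 9 and 3. The shares of all probe sets under that unadjusted threshold were 6.51%, 6.11%, 2.91% and 7.79% in brain stem and 5.15%, 7.57%, 9.84% and 4.09% in olfactory bulb. After adjustment, 0.306%, 0.0161%, 0% and 0.00322% were called in brain stem at 1, 3, 6 and 24 h, and 0.00322%, 0%, 0% and 0% in olfactory bulb. For the mean over the 4 times 0 members were called in either tissue (5 and 3 at an unadjusted p under 0.05, beside 7.14% and 6.58% of all probe sets), with 0.0548% of probe sets called in brain stem and 0% in olfactory bulb. The 95% interval of the median member extended 0.33 log2 units to either side in brain stem, with a range of 0.15 to 3.00 over members, and 0.37 in olfactory bulb at 3, 6 and 24 h. Absence of a call therefore does not show equal levels.

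No member of the nervous tissues passed the threshold, and the members of most extreme moderated statistic at each time are therefore values and not changes; highest and lowest refer to that statistic. At 1 h in brain stem the highest was Grik1, a kainate subunit, with 5.87, 5.97, 6.21 and 6.39 in PH3 rats, against 5.46, 5.51, 5.76 and 5.90 in Air rats. The groups overlapped by a single array each, and the difference was 0.45 ± 0.153 (SE, adjusted p = 0.414). Grik1 was also highest at 3 h, with 5.84, 5.86, 5.92 and 6.34 in PH3 rats, against 5.42, 5.46, 5.58 and 5.84 in Air rats, a difference of 0.42 ± 0.153 (SE, adjusted p = 0.718). Gabra6 was the lowest at 1 h, at -2.40 ± 1.46 (SE, adjusted p = 0.874), with overlapping groups as listed above. The cerebellar marker mean at 1 h was 6.43 ± 0.195 in PH3 and 6.85 ± 0.635 in Air brain stems (SD, n = 4 each), and with it in the fit the Gabra6 difference was -0.84 ± 0.716 (SE, adjusted p = 0.999).

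Gabra2, an alpha subunit of synaptic receptors, was lowest in brain stem at 3 h, with 6.50, 6.84, 7.30 and 7.31 in PH3 rats, against 7.26, 7.98, 8.09 and 8.25 in Air rats. A single Air array lay among the PH3 arrays, and the difference was -0.91 ± 0.306 (SE, adjusted p = 0.66). At 6 h the extremes were small, 0.14 ± 0.0783 for the AMPA subunit Gria3 and -0.15 ± 0.0734 for Grm6 (SE, adjusted p = 1 for both). At 24 h Grik2, a kainate subunit, was highest, with 5.60, 5.65, 5.83 and 6.23 in PH3 rats, against 4.69, 4.94, 5.63 and 5.77 in Air rats, a difference of 0.57 ± 0.176 (SE, adjusted p = 0.459). Gabra4 was lowest at 24 h, with 3.50, 4.06, 4.07 and 4.13 in PH3 rats, against 4.15, 4.46, 4.67 and 4.88 in Air rats. Its groups did not overlap, and the difference was -0.60 ± 0.229 (SE, adjusted p = 0.538).

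In olfactory bulb, Grik3 at 1 h gave 0.15 ± 0.0697 and Gabra2 -0.55 ± 0.287 (SE, adjusted p = 0.945 for both). At 3 h Grm7, a presynaptic group III receptor, had 5.40, 5.50, 5.77 and 6.04 in PH3 rats, against 4.80, 5.04, 5.26 and 5.36 in Air rats. Its groups did not overlap, and the difference was 0.57 ± 0.182 (SE, adjusted p = 0.532). By size the largest difference at 3 h was that of Gabbr2, at 0.80 ± 0.277 (SE, adjusted p = 0.532), with overlapping groups. Gria2 was the lowest at 3 h, at -0.20 ± 0.107 (SE, adjusted p = 0.683). At 24 h Gabrg3, a gamma subunit, had 3.32, 3.35, 3.38 and 3.41 in PH3 rats, against 3.00, 3.07, 3.20 and 3.23 in Air rats, without overlap, a difference of 0.24 ± 0.076 (SE, adjusted p = 1), and Gabre was lowest at -0.17 ± 0.1 (SE, adjusted p = 1).

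At 6 h in olfactory bulb 1 array stood apart. That of the PH3 rat Rat381 was the lowest of the 8 arrays for 28 of 41 members, such as Grm8 (4.95, against 6.10 to 6.24 in the other PH3 rats) and the beta1 subunit Gabrb1 (7.74, against 8.78 to 8.93). With this array 35 of 41 member differences were negative, the median was -0.23 over members and -0.02 over all probe sets, and 9 members (22%) had an unadjusted p under 0.05, against 9.84% of all probe sets. Without it 27 of 41 were negative, the median was -0.06 over members and -0.02 over all probe sets, and 2 members had an unadjusted p under 0.05, against 4.74% of all probe sets. The size of the median and the number of low p-values therefore rest largely on that rat, and 0 members were called with or without it. The 3' minus 5' index of control transcripts, a measure of RNA integrity, was 0.506 for Rat381 and 0.298 to 0.469 for the other PH3 arrays of that time, against 0.258 to 0.432 for the Air arrays. Olfactory bulb Air arrays of 1 h and 3 h had indices of 0.443 to 0.588 and 0.435 to 0.602. The array median of Rat381, 5.418, was the highest of the olfactory bulb arrays, which ran from 5.312. The part of RNA integrity in the values of Rat381 was not tested. Grm4, a presynaptic group III receptor, had the lowest statistic, with 4.81, 5.32, 5.49 and 5.75 in PH3 rats, against 5.66, 6.08, 6.11 and 6.19 in Air rats. A single PH3 array lay above the lowest Air array, and the difference was -0.67 ± 0.191 (SE, adjusted p = 0.473), or -0.49 without Rat381. Gabra2 and Gabrb2 had differences of -0.76 ± 0.302 and -0.66 ± 0.278 (SE, adjusted p = 0.475 and 0.479), also with overlap, and -0.65 and -0.52 without that rat. The highest statistic belonged to Gabre, at 0.13 ± 0.1 (SE, adjusted p = 0.619), or 0.03 without it. Markers of some other cells lay off 0 in the same contrast and others near it, with 0 of them called. Astrocyte, brain stem and Purkinje cell lists had medians of -0.03, -0.0016 and 0.0025, with 2 of 6, 4 of 8 and 3 of 6 differences positive. All 5 endothelium markers were positive, with a median of 0.12, and 0.17 without Rat381. Of 5 oligodendrocyte, 6 microglia and 10 neuron markers 0 differences were positive (medians -0.49, -0.26 and -0.14), while all 5 smooth muscle and pericyte and all 5 olfactory sensory neuron markers were positive (medians 0.60 and 0.69). Without Rat381 these 5 medians were -0.31, -0.11, -0.06, 0.29 and -0.05, in the same order. Of 34 glutamate synapse partners 4 differences were positive, with a median of -0.22, and without that rat 7 were positive, with a median of -0.08. Their part in the members' values was not tested.

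**Figure D3:**
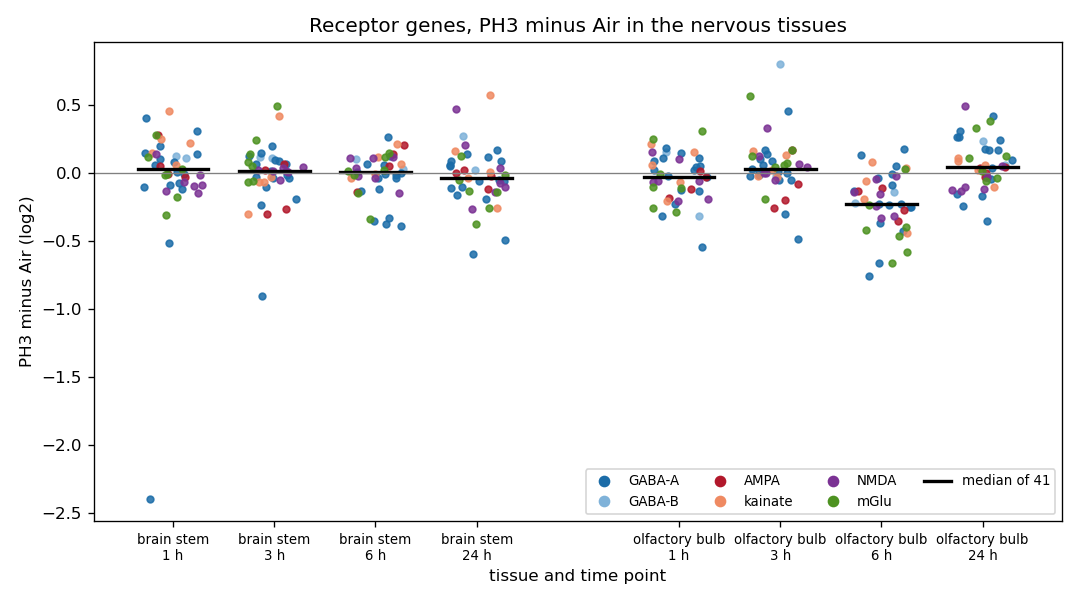
Difference of PH3 minus Air (log2, vertical axis) of the 41 receptor genes in brain stem and olfactory bulb at each time point, 1 point per gene coloured by class, with the median of the 41 as a black bar. The median in olfactory bulb at 6 h lies at -0.23 with all arrays and is -0.06 without the array of Rat381, and Gabra6 in brain stem at 1 h lies lowest at -2.40.

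The difference itself between times was tested within each tissue and gave 0 called members in brain stem and olfactory bulb, beside 0.0709% and 0% of probe sets. At an unadjusted p under 0.05 there were 2 and 4 members, beside 5.55% and 7.04% of all probe sets. A test of whether the PH3 difference differed between brain stem and olfactory bulb gave 0 called members at 1, 3, 6 and 24 h, beside 0.0129%, 0%, 0% and 0% of probe sets. At an unadjusted p under 0.05 there were 0, 2, 4 and 7 members at these times, beside 6.12%, 3.84%, 5.94% and 5.73% of all probe sets. Of 18 GABA synapse partners, 34 glutamate synapse partners and 5 related receptors, 0 were called for PH3 minus Air in either nervous tissue at any time.

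Air rats of different times differed in brain stem. There 5 members were called by an F test over the 4 Air groups, beside 7.8% of all probe sets, and each was lowest at 24 h. At an unadjusted p under 0.05 there were 11 members, beside 21.5% of all probe sets. Gabbr2 averaged 9.63 ± 0.133, 9.66 ± 0.124, 9.67 ± 0.175 and 8.97 ± 0.135 at 1, 3, 6 and 24 h (SD, n = 4 each, adjusted p = 2.8e-04). Its 24 h Air arrays read 8.87, 8.92, 8.93 and 9.17. Grin2c, an NMDA subunit typical of cerebellar granule cells and glia, averaged 7.76 ± 0.228, 7.84 ± 0.233, 7.58 ± 0.0535 and 6.76 ± 0.242 (SD, n = 4 each, adjusted p = 5.4e-05). Grik5 averaged 7.05 ± 0.128, 7.33 ± 0.229, 7.03 ± 0.222 and 6.36 ± 0.148 (SD, n = 4 each, adjusted p = 1.9e-04). The called kainate subunit Grik2 and the NMDA subunit Grin1 had 24 h means of 5.26 and 7.26, against 5.86 to 6.14 and 7.88 to 8.04 at the earlier times. PH3 rats were low at 24 h as well, with means of 9.24 for Gabbr2, 7.23 for Grin2c and 6.53 for Grik5 at 24 h, against 9.70 to 9.78, 7.56 to 7.87 and 7.09 to 7.30 at 1 to 6 h. Without the 24 h groups 0 members were called, beside 0% of all probe sets. The 3' minus 5' index was 0.508 ± 0.0597 in PH3 brain stem at 24 h and 0.408 ± 0.0463 in Air brain stem at 24 h, against 0.433 to 0.538 at the other Air times (SD, n = 4). Its part in these calls was not tested. Of 34 measured glutamate synapse partners, the scaffolds Shank2 and Shank3 and the AMPA auxiliary subunit Cacng2 were called between Air times in brain stem. The share over all probe sets in that test was 7.8%, as given above. In olfactory bulb 0 members were called between Air times, beside 1.39% of probe sets, and 3 had an unadjusted p under 0.05, beside 12.4%.

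Outside the nervous system most members were lower. With the same probe set in all 6 tissues, brain stem was higher than blood, heart, kidney and lung for 25, 31, 32 and 33 members, beside 42.4%, 32.6%, 31.2% and 32.4% of all probe sets. Olfactory bulb was higher than these tissues for 26, 28, 29 and 31 members, beside 42.8%, 34.2%, 32.7% and 32.1%. The highest mean lay in olfactory bulb for 17 members, in brain stem for 13, in blood for 10 and in kidney for 1.

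The kidney member was Gabrp, the pi subunit known from epithelia. It averaged 7.19 ± 0.426 in kidney and 4.90 ± 0.74 in lung, against 2.69 ± 0.117 in brain stem and 2.73 ± 0.142 in olfactory bulb (SD, n = 16, 16, 16 and 17). Its kidney level exceeded that of brain stem by 4.50 ± 0.136 and its lung level by 2.21 ± 0.136 (SE, adjusted p = 3.1e-46 and 6.9e-26). The AMPA subunit Gria3 was high in heart (7.63 ± 0.233) and lung (7.05 ± 0.273), against 8.91 ± 0.118 in brain stem and 9.42 ± 0.26 in olfactory bulb (SD). Its kidney and blood means were 3.93 and 3.68. Gabbr1 had means of 7.76 in blood, 7.13 in lung, 6.23 in heart and 5.65 in kidney, against 10.94 in brain stem and 10.91 in olfactory bulb. Grm3 averaged 5.35 ± 0.416 in lung (SD, n = 16), against 3.37 to 4.09 in kidney, heart and blood.

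Members called higher than both nervous tissues numbered 11 in blood, 5 in heart, 3 in kidney and 2 in lung, beside 45.8%, 39%, 33.7% and 31.1% of all probe sets. The blood count, like the members highest in blood, includes Grm8, at 5.13 in blood against 4.54 in brain stem and 4.38 in olfactory bulb. The Grm8 probe set brightest in the nervous tissues averaged 6.06 and 6.22 there. In blood it was dimmer than another that averaged 5.35, so the direction of Grm8 depends on the probe set. In blood the largest were Gabrq, at 6.40 ± 0.473 in blood against 3.80 ± 0.106 in brain stem and 3.68 ± 0.161 in olfactory bulb (SD, n = 15, 16 and 17), and Gabrr2, at 4.92 ± 0.477 in blood against 3.10 ± 0.133 and 3.04 ± 0.0944. Grm6, Grik3 and Grin2b followed, higher than brain stem by 1.60, 1.15 and 1.80 and than olfactory bulb by 1.56, 1.27 and 0.82. Blood background was higher too: the median of the nonspecific control probe sets averaged 3.46 ± 0.0952 in Air blood, against 2.72 ± 0.0416 in brain stem and 2.66 ± 0.0452 in olfactory bulb, and the control richest in G and C averaged 5.73 in blood, against 3.13 and 3.04. Its part in these calls was not tested. In heart Gabrr1, Gabrr2, Gabrp, Grik3 and Gabrq were called above both nervous tissues by 0.33 to 0.54. Heart background was raised as well, with a control median averaging 2.90 and the control richest in G and C averaging 3.87. The part of heart background in these calls was not tested.

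**Figure D4:**
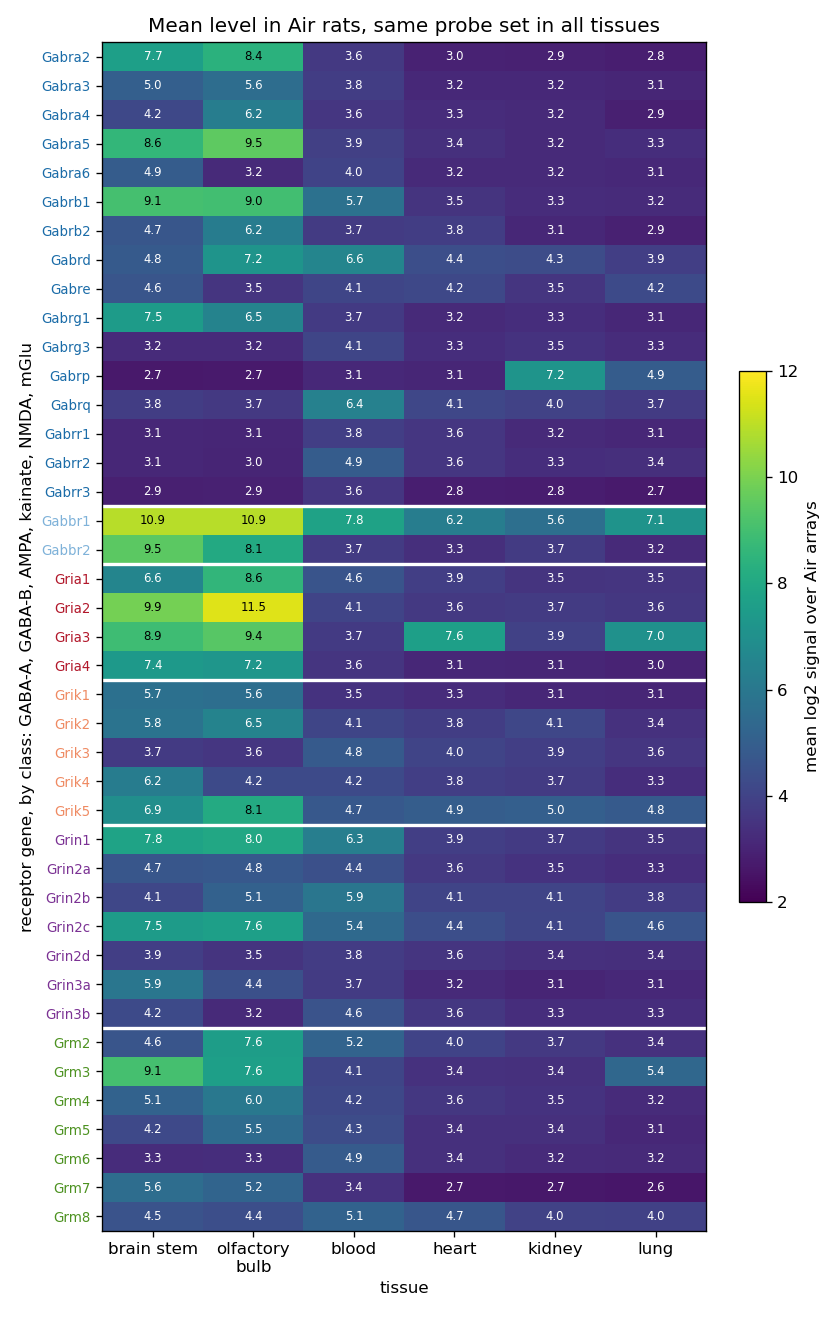
Mean log2 signal of each receptor gene (rows, grouped by class) in Air arrays of the 6 tissues (columns), with the mean printed in each cell. Levels are to be read along a row. Most rows are brightest in brain stem or olfactory bulb, Gabrp is brightest in kidney at 7.2, and Gria3 stays at 7.6 in heart and 7.0 in lung.

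In blood, heart and kidney 0 members were called for PH3 minus Air at any time. Over all probe sets the shares called were 0% at every time in blood, 0.915%, 0.00644%, 0% and 0.00644% at 1, 3, 6 and 24 h in heart, and 2.35%, 0.303%, 0.0161% and 0% in kidney. With all tissues in a single fit and rat as replicate block, which pools the spread of blood with that of the other tissues, 6, 1, 5 and 4 of 41 members were called in blood at 1, 3, 6 and 24 h, beside 19.4%, 6.4%, 10.7% and 18.3% of all probe sets. For the mean over times that fit called 6 in blood, beside 15.3%. Blood members had a median within-group SD of 0.481, against 0.151 to 0.267 in the other 5 tissues. In the fit by tissue, unadjusted p-values under 0.05 were reached by 2, 0, 4 and 3 members in blood, 5, 4, 2 and 0 in heart, and 3, 5, 3 and 4 in kidney. The shares of all probe sets under that threshold were 8.34%, 2.93%, 4.24% and 6.5% in blood, 11.9%, 4.89%, 3.16% and 7.09% in heart, and 12.2%, 10%, 6.71% and 6.28% in kidney. For the mean over times 0 members were called in blood, heart, kidney and lung, beside 0%, 0.0451%, 1.6% and 0.973% of probe sets, with 2, 1, 5 and 3 members at an unadjusted p under 0.05, beside 5.51%, 8.14%, 12.6% and 14.1%. The difference between times gave 0 called members in blood, heart, kidney and lung, beside 0%, 0.116%, 0.49% and 4.82%. Members at an unadjusted p under 0.05 numbered 2, 2, 2 and 5, beside 5.07%, 7.13%, 9.48% and 20.8% of all probe sets. Air times gave 0 called members in blood, heart and kidney, beside 0%, 0.548% and 0.00322%, and 1, 3 and 1 at an unadjusted p under 0.05, beside 4.35%, 10.2% and 6.11%.

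In the fits by tissue, lung was the only one of the 6 tissues with called members for PH3 minus Air, 2 lower and 0 higher at 3 h, beside 9.89% of all probe sets at that time. At an unadjusted p under 0.05 there were 8 members, beside 24.5%. The fit of all tissues with rat as block called 1 member at 3 h, beside 1.25% of probe sets. At 1, 6 and 24 h 0 members were called in the fit by tissue, beside 4.24%, 0% and 0%, and 1, 3 and 4 had an unadjusted p under 0.05, beside 15.1%, 4.95% and 6.14%. Grm3 read 3.98, 4.19, 4.22 and 4.63 in PH3 lungs at 3 h, against 4.22, 5.12, 5.51 and 5.66 in Air lungs. A single Air lung, that of Rat355, lay among the PH3 lungs, and Grm3 fell by 0.87 ± 0.215 (SE, limma adjusted p = 0.0109). Against Air lungs of the other times the difference was -1.17 (adjusted p = 0.000666). In that contrast time differs along with exposure, and 431 of 31042 probe sets were called. Gabre read 3.92, 4.21, 4.27 and 4.43 in PH3 lungs, against 4.66, 4.67, 4.73 and 5.65 in Air lungs. These groups did not overlap, and Gabre fell by 0.72 ± 0.202 (SE, limma adjusted p = 0.0224).

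Air lungs at 3 h differed from the other Air lungs, however. Gabre averaged 4.93 ± 0.484 in Air lungs at 3 h, against 4.05 ± 0.0814, 3.95 ± 0.207 and 4.05 ± 0.328 at 1, 6 and 24 h (SD, n = 4 each, adjusted p = 0.00508 over Air times), and against those Air lungs the PH3 lungs of 3 h differed by 0.19 (adjusted p = 0.697). Without the Air lung at 5.65, from Rat355, the Gabre difference was -0.48 (adjusted p = 0.123). The same rat had the lowest Grm3 level of all Air lungs, at 4.22. The second Gabre probe set gave 0.12 ± 0.0897 (SE, adjusted p = 0.445). The 3' minus 5' index was 0.178 ± 0.0651 in PH3 and 0.445 ± 0.0776 in Air lungs at 3 h (SD, n = 4 each). With that index in the fit, Grm3 differed by -0.61 (adjusted p = 0.515), Gabre by -0.49 (adjusted p = 0.581), and 0 members were called, beside 0.0129% of all probe sets. Gabbr1, Gabre and Grin2b were called between Air times in lung, beside 12.2% of all probe sets. The brightest Gabrp probe set gave -0.70 ± 0.449 (SE, adjusted p = 0.359) at 3 h and a dimmer one -0.91 ± 0.231 (SE, adjusted p = 0.0127).

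**Figure D5:**
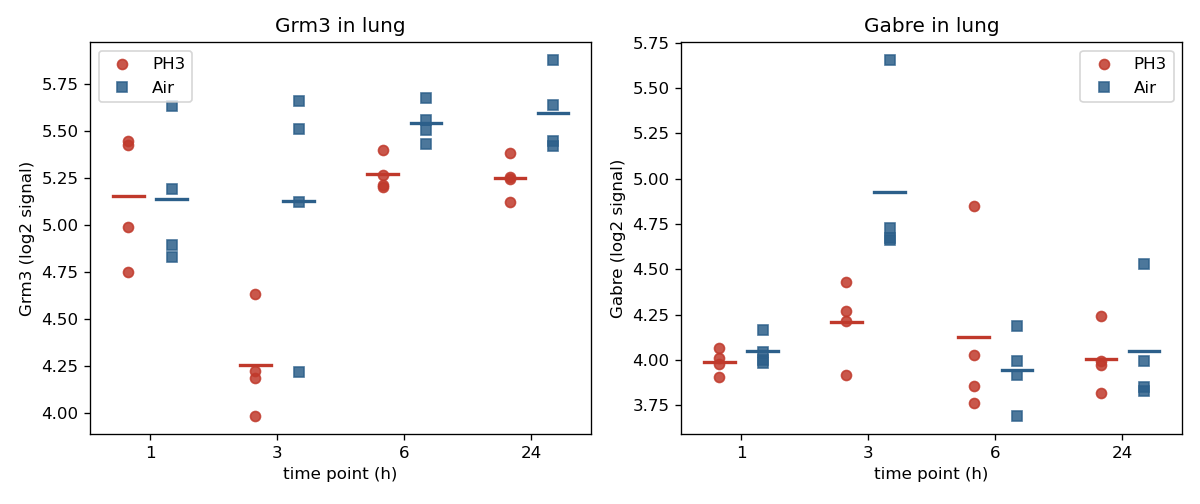
Levels of Grm3 and Gabre (log2 signal, vertical axes) in lung at each time point, 1 point per rat, red circles for PH3 left of blue squares for Air, with bars at group means. Grm3 is low in the PH3 lungs at 3 h, at 3.98 to 4.63, and Gabre is high in the Air lungs at 3 h, at 4.66 to 5.65.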

How the data were processed

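As deposited, each array holds a log2 signal for every probe set. Per the submitters' processing notes the authors used RMA and Partek, with no versions given. Which arrays were normalized together, and the genome build, is not given in the sources used here. Since RMA by design equalises array distributions, an array-wide shift would not be seen. Probe sets were named from the platform annotation: 19063 had 1 gene, 572 several and 11407 none. After removal of 97 manufacturer's controls, tests covered 31042 probe sets.

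In each tissue limma 3.58.1 (R 4.3.3) was fitted to the 8 groups of exposure and time, with contrasts of PH3 minus Air at each time, their mean, and F tests for a PH3 difference that varies over times and for Air levels that vary over times. Air tissues were compared in fits across tissues. P-values were Benjamini-Hochberg adjusted over all probe sets, with 0.05 as threshold. The fits were tested on simulated data with known changes at 3 h. Of changes of 0.5 log2 they recovered 2.99% in blood, 47.8% in brain stem, 49.3% in olfactory bulb and up to 56.7% in lung. Of changes of 1 log2 they recovered 14.9% in blood and up to 97% in brain stem. The number of arrays per group limits precision; the labels give each array a rat number, so arrays of a group are different rats.

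The rat number is shared across tissues because the tissues came from the same animal. PH3 and Air rats differ, so these are not paired. The within-rat correlation, estimated on every 10th probe set, was 0.016 over all arrays and 0.130 over both nervous tissues; fits with rat as replicate block were run as alternatives. Others were arrays left out in turn, array medians subtracted, a trended prior, the brighter 50% of probe sets, the 3' minus 5' index as covariate and other probe set rules; the cerebellar marker covariate, the comparison with other Air times, fits without the 24 h groups and medians over members with each olfactory bulb array of 6 h left out were added after seeing the data.

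Named genes were the called members, the extremes of moderated statistic in each nervous contrast, per class the 2 largest called differences each way between nervous tissues, members above both nervous tissues, those of largest spread, those varying over Air times, and called partner genes; others were named after their values were seen, to describe their class. Members and gene lists were chosen with earlier results of these data known.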

Additional observations from a re-analysis of the deposited data

Results flagged for a closer look

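In 10 of 58 groups of 4 or 5 arrays of the named genes and contrasts, a single array stood apart from the rest by Dixon's criterion. Chance flags about 1 in 20 groups that are independent and picked without regard to their values. Most genes here were picked by their values and some groups share rats, so the 10 cannot be read as an excess over that rate. In brain stem, Gabra4 had a lowest PH3 array of 3.50 at 24 h (others 4.06 to 4.13), Gabra6 a lowest PH3 array of 2.82 at 3 h (others 5.84 to 6.25) and Grik1 a highest PH3 array of 6.34 at 3 h (others 5.84 to 5.92). Gabrd had a highest PH3 array of 6.54 at 6 h (others 3.93 to 4.23) and a lowest Air array of 4.47 at 24 h (others 4.83 to 4.87), and Gria4 a lowest Air array of 7.21 at 24 h (others 7.59 to 7.63). In olfactory bulb, Gabre had a highest PH3 array of 3.87 at 6 h (others 3.46 to 3.52) and a lowest Air array of 3.29 at 6 h (others 3.49 to 3.52), and Gria2 a highest Air array of 11.61 at 3 h (others 11.44 to 11.47). In lung, Gabre had a highest Air array of 5.65 at 3 h (others 4.66 to 4.73), and without that rat its PH3 difference at 3 h was no longer called.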

How the results depend on the processing

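Of 1140 recomputed counts of called members, 1116 stayed within 1.5 times the reported count. Many of these were 0 in contrasts where few or no probe sets were called, and could hardly move. The lung count at 3 h moved in 5 of 8 settings other than leaving out 1 array. With rat as replicate block in a fit of all tissues, members called in blood numbered 6 for the mean over times and 6, 1, 5 and 4 at 1, 3, 6 and 24 h (0 in the fit by tissue), and lung at 3 h had 1; the block changed no other count by this measure. The lung count at 3 h (2) was 0 with the 3' minus 5' index as covariate and 0 with only the groups of that time. It was 1 against Air of 1, 6 and 24 h, beside 431 of 31042 probe sets. Among the brighter 50% of probe sets it was 0, but that part held only 2 lung members, Gabbr1 and Gria3. The called Grm3 and Gabre were not in it, so that 0 was fixed in advance. The lung count over Air times (3) was 1 among the brighter 50%, which likewise leaves out Gabre and Grin2b. The brain stem count over Air times (5) was 0 without the 24 h groups, and the slope count (3) was 1 without the arrays of marker mean over 7. Members higher in brain stem than in olfactory bulb numbered 4 among the brighter 50%, which holds 22 members. The cause was not tested, except that the brighter 50% and the smaller fits hold fewer genes or samples.

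With 1 array left out, counts ranged from 11 to 13 (higher in brain stem), 15 to 17 (lower), 1 to 3 (lung at 3 h), 4 to 6 (brain stem Air times), 1 to 4 (lung Air times) and 2 to 4 (slope). The mean over times reached 1 in kidney without Air 3 h Rat490 and 1 in lung without Air 3 h Rat355, and both were otherwise 0. Heart Air times gave 0 to 1 (1 without Air 24 h Rat340), and lung differences between times 0 to 1 (1 without Air 3 h Rat355 or Rat365). The lung count over Air times was 1 without Rat335, Rat355 or Rat377, and the lung count at 3 h was 1 without the PH3 rats Rat359 or Rat361.

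Of 1940 recomputed values of named genes, 1860 kept direction and side of the threshold, 70 lost a call, 2 gained one and 8 changed sign. Gabre in lung at 3 h was 0.19 against other Air times, and in olfactory bulb at 24 h 0.017 as the median over its probe sets. Gabrg3 in brain stem minus olfactory bulb was -0.01 as reported, 0.006269 with array medians subtracted and between -0.02406 and 0.004298 with 1 array left out, above 0 without brain stem Air 6 h Rat394 or olfactory bulb Air 3 h Rat520. Without the 24 h groups the difference between these tissues was -0.01849 for Grik1, 0.01203 for Grin1 and 0.14 for Grin2c. The Grin2c call between tissues was lost in 21 of 39 alternatives. Signal over background limits the peripheral tissues, where only 2 members lay in the brighter 50% of heart, kidney and lung.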
